A study of Homo sapiens with 6 samples.

Results

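The transcription factors TBX2, TBX3, TBX4, TBX5, FOXF1, FOXF2, TCF21, MEOX2, GLI1 and GLI2 were examined as a set of regulators that mark the mesenchyme of the developing lung. Members were taken by gene symbol, and each of the 10 symbols matched 1 of the 23754 features in the count table. IMR-90 is an established line of human fetal lung fibroblasts, and all 6 libraries came from IMR-90 cells that carried the sh-2 hairpin against ZNF469 in the doxycycline-inducible Tet-pLKO-puro lentiviral vector and were kept in 0.5 µg/mL puromycin. Control cells (DOX–, 3 libraries) received no doxycycline, and knockdown cells (DOX+, labelled Sh-ZNF469, 3 libraries) received 2 µg/mL doxycycline for 4 days. The submitted genotype of the control cells is wild-type, although the paper's methods describe them as the same transduced line without induction. Doxycycline and the hairpin were present together in every DOX+ library, so their effects cannot be told apart here. The submitters call the libraries technical replicates, so p-values measure only the spread between these libraries, which may be technical.

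The mesenchyme of the lung arises from mesoderm around the foregut endoderm, and it is patterned by Hedgehog ligands released from the epithelium. GLI2 transduces that signal, GLI1 is one of its direct targets, and FOXF1 is a Hedgehog-dependent forkhead factor of the same tissue. TBX2, TBX3, TBX4 and TBX5 are T-box factors of lung mesenchyme, where TBX4 and TBX5 act upstream of FGF10 and where TBX2 and TBX3 keep cells dividing. TCF21 is a basic helix-loop-helix factor of fibroblast precursors, and MEOX2 is a homeobox factor of mesoderm.

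TBX4 and MEOX2 were at or near 0 in these fibroblasts, whereas FOXF2 and TCF21 were expressed, and the DNA just upstream of a RefSeq start of these 4 genes is shown so that silent or nearly silent and expressed genes can be set beside each other. The sequences are from RefSeq on GRCh38.p14 and run 5′ to 3′ on the strand of the gene, from 250 to 51 bases before that start, with each CG dinucleotide in capitals. Upstream sequence was matched for 6 of the 10 genes (TBX4, TBX5, FOXF2, TCF21, MEOX2 and GLI2). TBX2, TBX3, FOXF1 and GLI1 are named only. The windows are chr17:61456238-61456437 for TBX4 (plus strand), chr7:15686734-15686933 for MEOX2 (minus strand), chr6:1389326-1389525 for FOXF2 (plus strand) and chr6:133888863-133889062 for TCF21 (plus strand). In GENCODE 44 the TBX4 window lies inside the gene, in an intron of both TBX4 transcripts that span it, so it is upstream only of the RefSeq start.

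TBX4: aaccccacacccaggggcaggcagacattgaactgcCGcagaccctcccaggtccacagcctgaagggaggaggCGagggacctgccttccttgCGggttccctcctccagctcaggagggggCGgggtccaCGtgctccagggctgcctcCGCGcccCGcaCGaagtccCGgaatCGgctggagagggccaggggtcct
MEOX2: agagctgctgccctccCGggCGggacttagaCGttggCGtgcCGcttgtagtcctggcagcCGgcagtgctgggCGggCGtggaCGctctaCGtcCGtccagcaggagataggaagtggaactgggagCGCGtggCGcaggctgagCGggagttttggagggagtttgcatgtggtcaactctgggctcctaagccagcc
FOXF2: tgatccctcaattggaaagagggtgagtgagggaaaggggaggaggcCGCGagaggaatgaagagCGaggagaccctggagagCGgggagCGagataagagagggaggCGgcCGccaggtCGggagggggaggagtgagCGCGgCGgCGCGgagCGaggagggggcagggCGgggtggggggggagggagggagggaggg
TCF21: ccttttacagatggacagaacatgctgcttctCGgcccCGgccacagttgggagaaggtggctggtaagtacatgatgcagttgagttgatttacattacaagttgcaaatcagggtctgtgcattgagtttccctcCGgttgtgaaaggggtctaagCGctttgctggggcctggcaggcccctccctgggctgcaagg

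TBX4 and MEOX2, the genes at or near 0, had 11 and 15 CG dinucleotides in these 200 bases, and the expressed genes FOXF2 and TCF21 had 15 and 4. The windows of TBX5 and GLI2, also expressed but not shown, had 19 and 11 (TBX5) and 16 and 4 (GLI2). MEOX2, at 0 counts, and FOXF2, which was expressed, held the same number. Over the 35097 upstream regions of the same length, the median was 8. GC content was 69.5% for TBX4, 65.0% for MEOX2, 70.0% for FOXF2 and 54.0% for TCF21. Both strands were searched for the GLI core GGGTGGTC, the forkhead motif TGTTTAC, the T-box element AGGTGTGA and the TATA box core TATAAA, none of which contains another. No window of the 6 matched genes held these letters. Matches were present in 0.70%, 2.35%, 0.66% and 7.63% of all the regions, respectively.

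The libraries held 34057675 to 36120260 counts. ZNF469, the targeted gene, had 118, 112 and 126 CPM (counts scaled to library size with TMM factors) in DOX– replicates 1, 2 and 3 and 80.4, 80.4 and 79.5 CPM in DOX+ replicates 1, 2 and 3. It fell to 67.5% of the DOX– level (log2 fold change −0.57, standard error 0.0477, edgeR adjusted p = 3.31e-05). VIM and COL1A1 stood at 3825 and 2077 FPKM (fragments scaled to transcript length and library size) in DOX– cells. Of 10 lung epithelial markers 7 had 0 counts in all libraries, NKX2-1 and SFTPC among them. The other 3, AGER, EPCAM and CDH1, had means of 0.996, 0.123 and 0.0106 FPKM in DOX– cells. The summed level of the list was 0.976 to 1.38 FPKM in DOX– libraries and 0.967 to 1.57 FPKM in DOX+ libraries. Of 8 endothelial markers 2 had 0 counts in all libraries, the defining markers PECAM1 and CDH5, whereas EGFL7 and TEK had means of 5.58 and 4.03 FPKM in DOX– cells, and the list summed to 8.14 to 11.6 FPKM and 7.84 to 11.4 FPKM in the same order. Of 7 immune markers 3 had 0 counts in all libraries, CD68, a lysosomal protein, had a mean of 31.0 FPKM in DOX– cells, and the list summed to 29.5 to 32.4 FPKM and 29.7 to 32.4 FPKM. PTPRC, the defining marker of immune cells, was at 0.0113 ± 0.00977 FPKM (SD, n = 3) in DOX– cells and 0.0120 ± 0.0135 FPKM (SD, n = 3) in DOX+ cells. Of 11 fibroblast markers 5 fell in DOX+ cells (COL1A1, COL1A2, COL3A1, DCN and LUM, the last just inside the threshold at an edgeR adjusted p of 0.0499) and 0 rose, and the summed level of all 11 ranged from 10684 to 10797 FPKM in DOX– libraries and from 9648 to 9750 FPKM in DOX+ libraries. The contractile genes TAGLN, ACTA2 and CNN1 of the mural list were high, at 2329, 875 and 127 FPKM in DOX– cells. NOTCH3, CSPG4 and RGS5 stood at 41.0, 26.4 and 2.42 FPKM in these cells, and MYH11 and DES at 0.341 and 0.166 FPKM. The summed level of the 8 mural cell markers ranged from 3374 to 3431 FPKM and from 3485 to 3694 FPKM, in the same order, with 0 called. The part of these shifts in the values of the 10 factors was not tested.

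The 10 factors ran from 0 counts to percentile 95.3 of detected genes in these cells. In DOX– cells the order of mean FPKM was TBX2, FOXF1, TBX3, FOXF2, TBX5, TCF21, GLI2, GLI1, TBX4 and MEOX2. The ranges over the 3 DOX– libraries did not overlap between any neighbours in that order except TBX4 and MEOX2. The same order held in DOX+ cells, where the ranges of FOXF2 (11.6 to 13.7 FPKM) and TBX5 (11.0 to 11.8 FPKM) also overlapped, although FOXF2 was above TBX5 within each of the 3 DOX+ libraries. TBX2 lay at percentile 95.3 and FOXF1 at percentile 91.6 of the 15577 Ensembl genes with FPKM above 0 in at least 1 library. TBX3, FOXF2, TBX5, TCF21 and GLI2 lay between percentiles 76.6 and 56.7, GLI1 at 27.9 and TBX4 at 10.7. The median detected gene had 4.38 FPKM. The place of TCF21 depends on the transcript length behind its FPKM. Its mean in DOX– cells was 38.6 CPM, against 36.9 CPM for FOXF2, although its FPKM was lower (8.33 against 13.6). The canonical transcript of TCF21 (1280 bp) is shorter than that of FOXF2 (2451 bp), so its FPKM rests on a longer length. At the canonical length its level and percentile would be higher, and its place in the order was not tested.

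**Figure D1:**
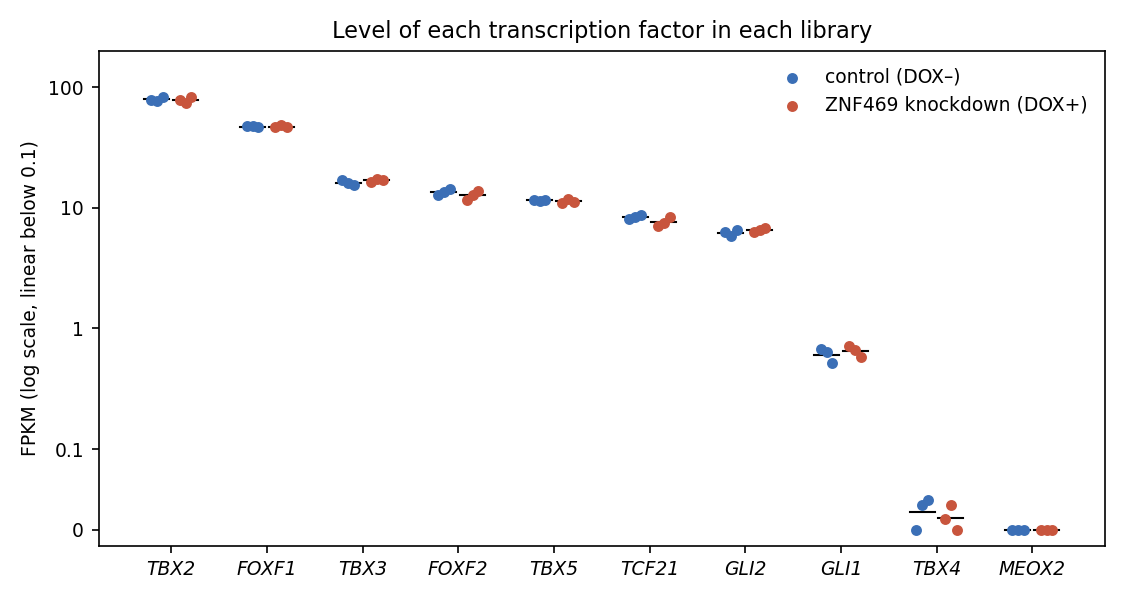
FPKM of the 10 factors (log axis, linear below 0.1) in 3 DOX– and 3 DOX+ libraries, each point 1 library and each line a group mean. TBX2 and FOXF1 are the highest at means of 79.4 and 47.1 FPKM in DOX– cells, and TBX4 and MEOX2 lie at or near 0 in both groups.

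TBX2, a T-box repressor, was the most abundant of the 10. The gene (ENSG00000121068) has 7 exons in its canonical transcript and lies on chromosome 17 from 61399843 to 61409466. Its level was 77.9, 77.1 and 83.1 FPKM in DOX– replicates 1, 2 and 3 and 78.1, 73.5 and 82.5 FPKM in DOX+ replicates 1, 2 and 3. The groups overlapped, with replicate 3 the highest in each. The log2 fold change was −0.06 (standard error 0.0496, edgeR adjusted p = 0.606), with a 95% confidence interval from 89.0% to 103% of the DOX– level.

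TBX4, which lies 42.9 kb from TBX2 on the same chromosome (61452404 to 61485110, ENSG00000121075), was close to undetected. It had 0, 4 and 5 counts in DOX– replicates 1, 2 and 3 and 2, 4 and 0 counts in DOX+ replicates 1, 2 and 3. Summed over each group, the 9 DOX– counts were 0.0860 CPM without TMM factors (exact Poisson 95% interval 0.0393 to 0.163) and the 6 DOX+ counts were 0.0563 CPM (0.0207 to 0.122). The intervals, which cover counting error only, overlapped. With means of at most 3 counts per library in both groups, no fold change is given, and a change of TBX4 was not detectable at this depth.

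TBX3, the closest relative of TBX2, and TBX5, the closest relative of TBX4, lie 261.8 kb apart on chromosome 12 (TBX3 from 114670255 to 114684175, TBX5 from 114353911 to 114408442), and both were expressed. TBX3 (ENSG00000135111) had 16.8, 16.1 and 15.6 FPKM in DOX– replicates 1, 2 and 3 and 16.3, 17.3 and 17.1 FPKM in DOX+ replicates 1, 2 and 3. TBX5 (ENSG00000089225) had 11.7, 11.4 and 11.6 FPKM in DOX– replicates and 11.0, 11.8 and 11.3 FPKM in DOX+ replicates, in the same order. The groups overlapped for both genes. The log2 fold change of TBX3 was 0.02 (standard error 0.0423, edgeR adjusted p = 0.874), and its 95% confidence interval ran from 95.1% to 108% of the DOX– level. For TBX5 it was −0.04 (standard error 0.0470, edgeR adjusted p = 0.775), with an interval from 90.9% to 105%.

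Over all 17 T-box genes examined, TBX2 alone made up 69.6% to 73.7% of the summed FPKM in each library. TBX3 made up 13.8% to 16.3% and TBX5 9.91% to 11.1%. Next came MGA, a large T-box protein that also binds MAX, with 1.5% to 1.99%. TBX4 was the eighth of the 17, at no more than 0.0325% in any library, and 7 others had 0 counts in all libraries (TBXT, TBX10, TBX20, TBX21, TBX22, TBR1 and EOMES). In both groups, T-box transcripts other than TBX2, TBX3 and TBX5 were scarce.

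**Figure D2:**
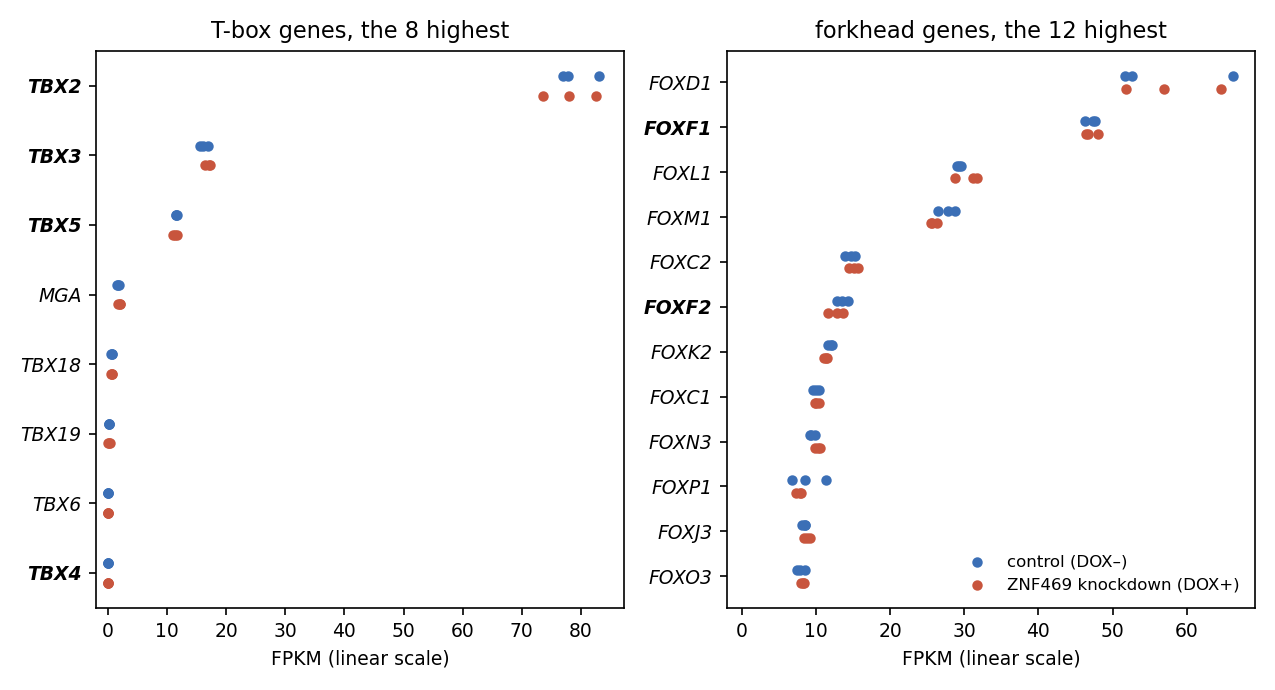
FPKM (linear axis) of the 8 highest T-box genes and the 12 highest forkhead genes, each point 1 library, with members of the set in bold. TBX2 stands far above all other T-box genes, and FOXF1 comes second to FOXD1 among forkhead genes in every library.

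FOXF1 (ENSG00000103241, chromosome 16 from 86510527 to 86515422, 2 exons), which lies 1.87 Mb from ZNF469 on the same chromosome, was the second most abundant factor. Its level was 47.3, 47.7 and 46.3 FPKM in DOX– replicates 1, 2 and 3 and 46.4, 48.1 and 46.6 FPKM in DOX+ replicates 1, 2 and 3, and the groups overlapped. In normalised counts, by contrast, the DOX– libraries (184, 185 and 183 CPM) all lay above the DOX+ libraries (178, 181 and 178 CPM). The difference was small. The log2 fold change was −0.04 (standard error 0.0348, edgeR adjusted p = 0.649), with a 95% confidence interval from 92.4% to 103% of the DOX– level.

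FOXF2 (ENSG00000137273, chromosome 6 from 1389576 to 1395603, 2 exons), the paralogue of FOXF1, was less abundant in every library. It had 12.8, 13.5 and 14.3 FPKM in DOX– replicates 1, 2 and 3 and 11.6, 12.8 and 13.7 FPKM in DOX+ replicates 1, 2 and 3. The lowest value was in DOX+ replicate 1 and the highest in DOX– replicate 3, and the groups overlapped. Its log2 fold change of −0.13 was the largest in size among the 8 tested factors, but it did not pass the test (standard error 0.0679, edgeR adjusted p = 0.385). The 95% confidence interval ran from 82.4% to 101% of the DOX– level. Among the 40 forkhead genes examined, FOXF1 made up 16.5% to 18.4% of the summed FPKM per library and FOXF2 4.38% to 5.21%, whereas FOXD1, a forkhead factor of stromal progenitors, made up 19.6% to 23.5%.

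TCF21 (ENSG00000118526) lies on chromosome 6 from 133889113 to 133895553 and has 2 exons. Its level was 8.0, 8.31 and 8.68 FPKM in DOX– replicates 1, 2 and 3 and 7.01, 7.55 and 8.38 FPKM in DOX+ replicates 1, 2 and 3. In normalised counts, DOX+ replicate 3 (36.5 CPM) lay just above DOX– replicate 2 (36.2 CPM), and the groups overlapped by both measures. TCF21 had the smallest edgeR adjusted p of the 8 (0.369), at a log2 fold change of −0.11 (standard error 0.0561) and a 95% confidence interval from 85.0% to 101% of the DOX– level.

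MEOX2 (ENSG00000106511, chromosome 7 from 15611212 to 15686683) had 0 counts in all 6 libraries. A count of 0 allows up to 3 counts, which corresponds to 0.0831 to 0.0881 CPM in a single library. Over the 3 libraries of a group, the upper bound of the exact Poisson 95% interval was 0.0352 CPM in DOX– cells and 0.0346 CPM in DOX+ cells, for counting error only. MEOX1, its paralogue, had 0 to 0 counts in DOX– libraries and 0 to 2 in DOX+ libraries.

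The GLI factors were dominated by GLI2, the main activator of the Hedgehog response. GLI2 (ENSG00000074047, chromosome 2 from 120735623 to 120992653) had 6.33, 5.85 and 6.49 FPKM in DOX– replicates 1, 2 and 3 and 6.32, 6.49 and 6.77 FPKM in DOX+ replicates 1, 2 and 3. The lowest library was DOX– replicate 2, and the groups overlapped. The log2 fold change was 0.10 (standard error 0.0534, edgeR adjusted p = 0.428), with a 95% confidence interval from 98.7% to 116% of the DOX– level.

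GLI1 (ENSG00000111087, chromosome 12 from 57459785 to 57472268), whose transcription follows Hedgehog signalling, stood at 0.669, 0.639 and 0.514 FPKM in DOX– replicates 1, 2 and 3 and at 0.720, 0.659 and 0.585 FPKM in DOX+ replicates 1, 2 and 3. These values rest on 91, 88 and 74 counts and on 97, 92 and 84 counts. The groups overlapped. In DOX– cells the mean of GLI2 was 10.2 times that of GLI1. The log2 fold change of GLI1 was 0.06 (standard error 0.182, edgeR adjusted p = 0.913), and its 95% confidence interval from 79.6% to 137% of the DOX– level was the widest of the 8. GLI2 made up 75.9% to 79.6% of the summed FPKM of GLI1, GLI2 and GLI3 in each library, GLI3 12.3% to 16.8% and GLI1 6.16% to 8.65%.

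Of the 10 factors, 8 passed the filter on low counts and were tested, and TBX4 and MEOX2 did not. At an adjusted p under 0.05, 0 of the 8 were higher and 0 lower in DOX+ cells by edgeR, beside 1.12% of the 13991 features called in either direction. At an unadjusted p under 0.05, edgeR called 0 of the 8, as did DESeq2 and limma-voom, beside 15.0% of all features in edgeR's test. The 2 groups did not overlap in CPM for 1 of the 8 (FOXF1), beside 20.3% of all features. In sign, 3 of the 8 were positive (TBX3, GLI1 and GLI2) and 5 negative (TBX2, TBX5, FOXF1, FOXF2 and TCF21), with a median log2 fold change of −0.04, against −0.0019 over all features. The median size of the log2 fold change was 0.06 for the 8 and 0.08 over all features.

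An absent call does not show that a level stayed the same, and the intervals give the bounds. For the 7 tested factors other than GLI1, the 95% confidence intervals of the DOX+ level lay between 82.4% and 116% of the DOX– level. The interval of ZNF469 itself ran from 62.9% to 72.5% and overlapped none of the 8. These are bulk libraries, in which fewer cells of a type and less RNA per cell cannot be told apart.

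**Figure D3:**
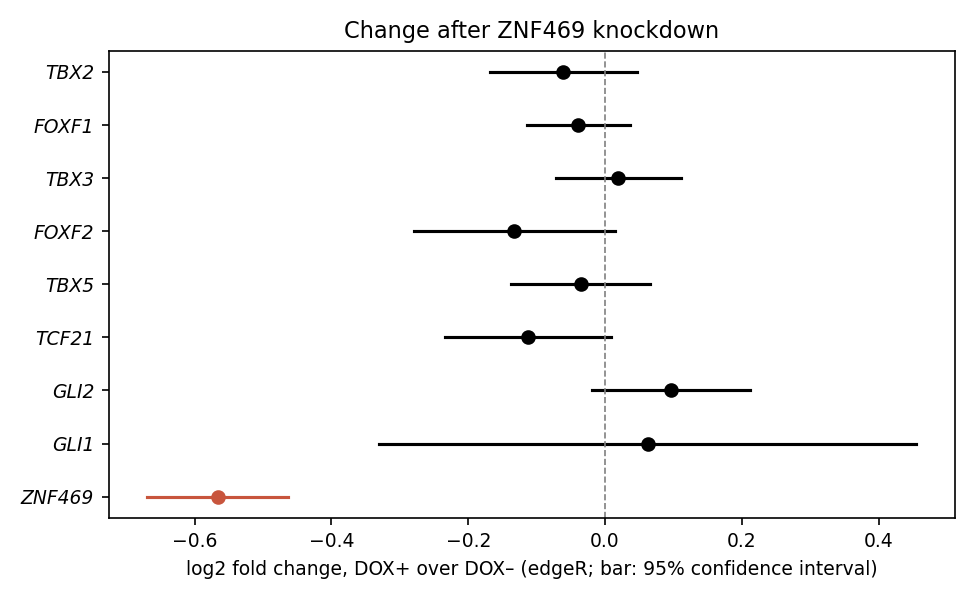
Log2 fold change of DOX+ over DOX– cells with its 95% confidence interval (edgeR, 3 against 3 libraries) for the 8 tested factors and for ZNF469. Each interval of the 8 spans 0, while that of ZNF469 lies between −0.67 and −0.46.

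The Hedgehog pathway was described further, since GLI1 and GLI2 are its transcriptional end points. Hedgehog ligands were near or at 0. SHH had 0 counts in 5 libraries and 2 counts in DOX– replicate 2, IHH had 0 in all 6, and DHH had 0 to 4 counts. Of the receptors, SMO, which passes the signal inwards, had a mean of 7.18 ± 0.501 FPKM (SD, n = 3) in DOX– cells, and PTCH1, which holds SMO inactive, had 1.17 ± 0.159 FPKM (SD, n = 3). PTCH1 and HHIP are also known targets of the pathway, and their log2 fold changes of 0.11 (PTCH1, edgeR adjusted p = 0.754) and 0.17 (HHIP, edgeR adjusted p = 0.548) did not pass the test. The ligands, receptors and targets in this paragraph were named for their role after their values were seen.

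Of 30 other Hedgehog pathway genes, 26 were tested, of which 1 rose, 0 fell and 25 did not pass, with a median log2 fold change of 0.04. The gene that rose was SCUBE3, a secreted protein of a family that helps release Hedgehog ligands from the cell surface. It had 12.2 ± 0.181 FPKM (SD, n = 3) in DOX– cells and 16.1 ± 0.312 FPKM (SD, n = 3) after induction. On the log2 scale the increase was 0.36, with a standard error of 0.0393 (edgeR adjusted p = 4.10e-04). The most abundant genes of the list, CSNK1A1 and PRKACA, which are kinases that phosphorylate GLI proteins, had log2 fold changes of 0.09 and −0.09 (edgeR adjusted p = 0.276 and 0.360). SPOP, an adaptor for the breakdown of GLI proteins, had one of −0.13 (edgeR adjusted p = 0.290).

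Among 23 signals made or received by lung mesenchyme, 11 were tested, of which 1 rose, 0 fell and 10 did not pass, at a median log2 fold change of −0.02. WNT5A, a non-canonical Wnt ligand, had 62.5 ± 1.76 FPKM (SD, n = 3) in DOX– cells and 71.2 ± 2.53 FPKM (SD, n = 3) in DOX+ cells (log2 fold change 0.19, standard error 0.0359, edgeR adjusted p = 0.0263). Leaving out single libraries ended this call in 5 of 6 cases, while the log2 fold change stayed between 0.159 and 0.207. Without DOX– replicate 1, 2 or 3 the edgeR adjusted p was 0.0793, 0.0759 or 0.131, and without DOX+ replicate 1 or 2 it was 0.126 or 0.0628. FGF10, the growth factor downstream of TBX4 and TBX5 in the embryonic lung, had 0 counts in all libraries, as did its receptor FGFR2 and the retinoic acid enzyme ALDH1A2. GREM1, an inhibitor of bone morphogenetic proteins, was the most abundant of the list at 304 ± 7.73 FPKM (SD, n = 3) in DOX– cells and 307 ± 11.1 FPKM (SD, n = 3) in DOX+ cells. SFRP1, a Wnt antagonist, and FGFR1 had log2 fold changes of 0.07 and −0.08 (edgeR adjusted p = 0.278 and 0.414).

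Other members of the same families did not pass the test either. Of 13 other T-box genes 3 were tested, MGA, TBX18 and TBX19, and 0 were called. Of 38 other forkhead genes 20 were tested and 0 were called, at a median log2 fold change of −0.0078. FOXD1, FOXL1, FOXM1 and FOXC2, the 4 most abundant, had log2 fold changes of −0.01, 0.07, −0.14 and −0.04 (edgeR adjusted p = 0.967, 0.453, 0.185 and 0.758). FOXN2 had a log2 fold change of 0.30 and an edgeR adjusted p of 0.0521, just outside the threshold. Of 22 other mesodermal regulators 12 were tested and 0 were called, at a median log2 fold change of 0.03. PRRX1 and PRRX2, paired-type homeobox factors of mesenchyme, had log2 fold changes of 0.18 and −0.15 (edgeR adjusted p = 0.0823 and 0.140), OSR1 had one of −0.11 (edgeR adjusted p = 0.437) and MEIS1 one of −0.01 (edgeR adjusted p = 0.932).

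Genes known to be repressed by TBX2 or TBX3 were read as well. Of the 6, 5 were tested and 0 were called, at a median log2 fold change of −0.0021. CDKN1A, a cell cycle inhibitor, stood at 345 ± 5.41 FPKM (SD, n = 3) in DOX– cells and 341 ± 8.26 FPKM (SD, n = 3) in DOX+ cells. CDKN2A, which encodes p16 and p14ARF, stood at 12.2 ± 0.0267 FPKM (SD, n = 3) and 11.9 ± 0.368 FPKM (SD, n = 3), and NDRG1 at 18.4 ± 0.0517 FPKM (SD, n = 3) and 18.8 ± 0.585 FPKM (SD, n = 3), in the same order of groups.

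**Figure D4:**
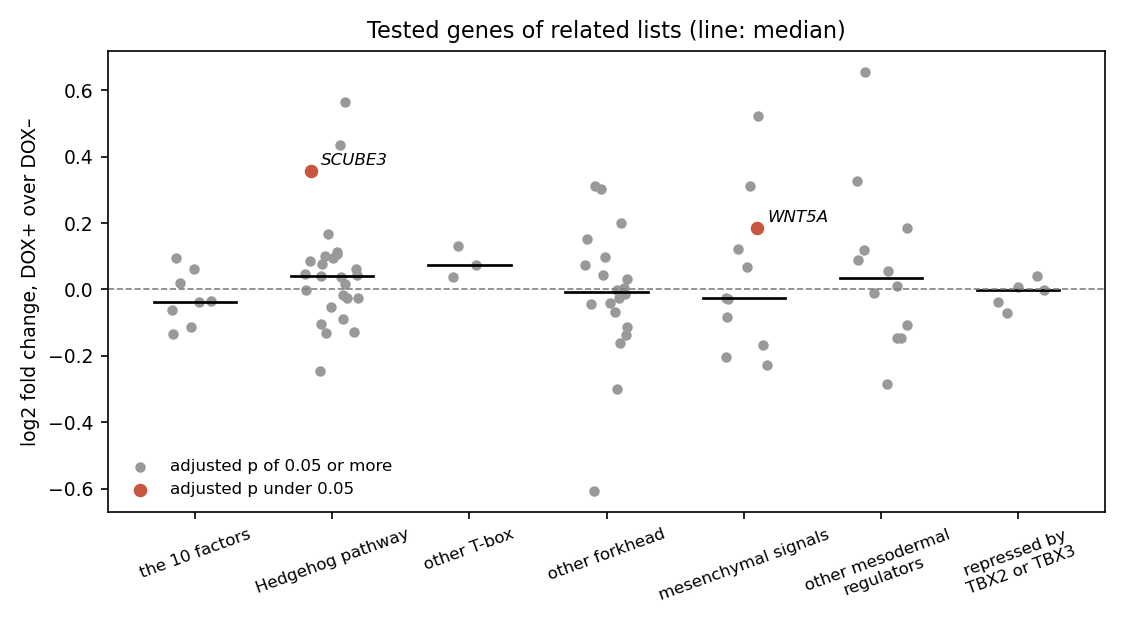
Log2 fold change of DOX+ over DOX– cells (edgeR) for the tested genes of the set and of 6 related lists, each point 1 gene and each line the median of a list. SCUBE3 and WNT5A, in colour, are the only genes shown with an adjusted p under 0.05, and all 8 tested factors lie between −0.13 and 0.10.

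In the GENCODE 44 annotation of GRCh38, 24 other genes overlap one of the 10 factors or start within 20 kb of it, and 9 of the 10 factors, all but FOXF1, are overlapped by a gene on the opposite strand. Whether counting used strand is not given in the sources used here, so reads of a factor and of its antisense partner cannot be told apart. Values were read for 3 of the 24, all next to GLI1. The Ensembl identifiers of the other 21 matched no feature in the count table, so these genes were not analysed here. MARS, the methionyl-tRNA synthetase gene that starts 15660 bp from the GLI1 start, fell from a mean of 194 CPM (SD 1.31, n = 3) to 160 ± 4.53 CPM (SD, n = 3), or by 0.28 on the log2 scale, at a standard error of 0.0370 (edgeR adjusted p = 0.00221). INHBE, which encodes an activin subunit and starts 7462 bp from GLI1, had 42, 53 and 47 counts in DOX– replicates 1, 2 and 3 and 20, 21 and 32 counts in DOX+ replicates 1, 2 and 3 (log2 fold change −1.0, standard error 0.298, edgeR adjusted p = 0.138). ARHGAP9, whose end overlaps that of GLI1 on the opposite strand, had 2, 4 and 8 counts in DOX– replicates and 0 in all DOX+ replicates, and did not pass the filter on low counts.

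The direction of each tested factor was followed over 15 other settings. The changes of TBX2, TBX3, TBX5, FOXF1, FOXF2, TCF21 and GLI2 kept their sign in all 15, and that of GLI1 turned in 1. All settings reuse the same libraries, so a kept sign is not independent evidence of a direction. In single settings the log2 fold change of TBX3 came down to 0.00096 and that of FOXF1 to −0.0021.

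**Figure D5:**
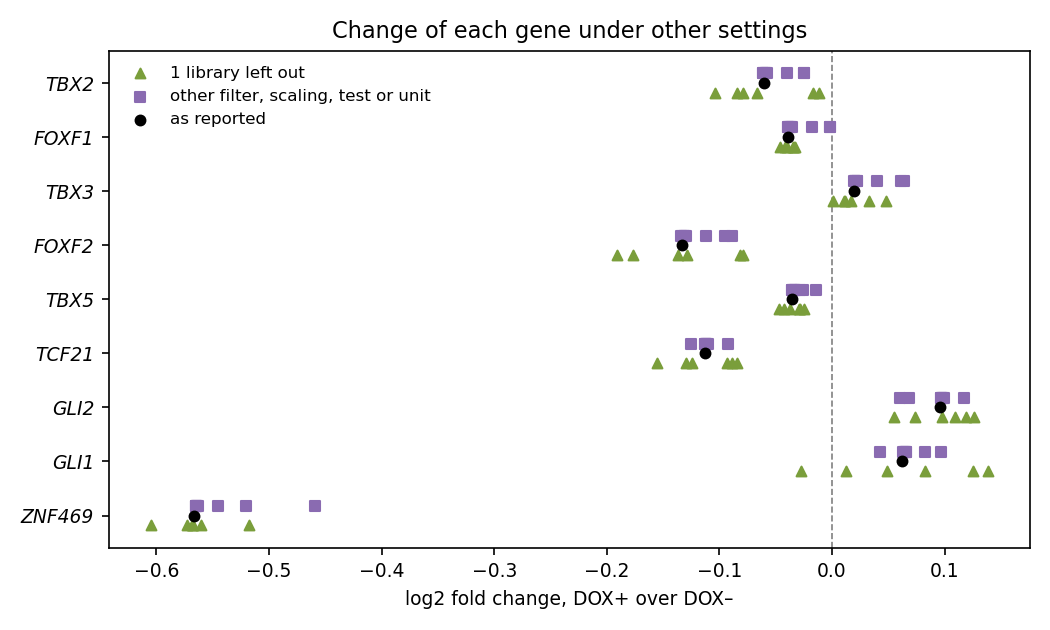
Log2 fold change of each tested factor and of ZNF469 as reported, with 1 library left out (6 fits) and with another filter, scaling, test or unit (9 fits). The factors lie between −0.19 and 0.14 in all of them and ZNF469 between −0.61 and −0.46.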

How the data were processed

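RNA from IMR-90 cells with (DOX+) or without (DOX–) induction of the ZNF469 hairpin was sequenced as poly(A)-selected libraries in read pairs of 150 bp (n = 3 per group). According to the submitters' processing notes, GRCh38, HISAT2 and StringTie were used. Versions, annotation release and the counting step are not given in the sources used here. The deposited counts are whole numbers that the authors did not normalize, and the deposited FPKM values were used for levels. In all, 17 stray lines without values were dropped.

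Counts were compared with edgeR 4.0.16 in R 4.3.3 (filterByExpr, minimum count 10; TMM factors 0.988 to 1.01; quasi-likelihood test; p-values adjusted by Benjamini-Hochberg across 13991 features). Each standard error was obtained by dividing the log2 fold change by the root of the F statistic, and intervals use the moderated degrees of freedom. Positions came from GENCODE 44 and sequences from RefSeq. The procedure was tested on simulated counts. Members and lists were chosen with earlier results of these data known. Named genes were all members, ZNF469, list genes with an adjusted p under 0.05, the 4 most abundant tested genes of each related list, neighbours within 20 kb, and markers from the cell type lists. Some genes that this rule takes in are not reported here. Genes named outside this rule, after their values were seen, are FOXN2, MEOX1, GLI3, FGF10, FGFR2, ALDH1A2, the T-box genes listed at 0 and those marked in the text.

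As alternatives, DESeq2 1.42.0, limma-voom (limma 3.58.1), limma on log2(FPKM + 0.1) and log2(FPKM + 1), stricter thresholds, the replicate number as a block, scaling by library size or upper quartile, 2 other low-count filters and leaving out each library were tried. With 34057675 to 36120260 counts per library, precision is limited for genes with few counts.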

Additional observations from a re-analysis of the deposited data

How the results depend on the processing

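The absence of a call for any of the 8 tested factors held in all settings run, with 0 calls in 120 refits and edgeR, DESeq2 or limma adjusted p-values from 0.176 upwards, except that DESeq2 gave no adjusted p for GLI1 (unadjusted p = 0.781). Unadjusted p-values fell under 0.05 in 5 of these refits: for FOXF2 with the replicate block (0.0178), without DOX– replicate 1 (0.0360) and without DOX+ replicate 3 (0.0184), for TCF21 without DOX– replicate 2 (0.0229) and for GLI2 with library size scaling (0.0442). The sign of GLI1 turned without DOX– replicate 3, at a log2 fold change of −0.0277 (range −0.0277 to 0.14 with 1 library left out), and the cause was not tested. ZNF469 stayed called in all 15 settings (log2 fold change −0.61 to −0.46). Dividing each gene's CPM by the length its counts and FPKM imply returns the FPKM by construction, so it does not test the levels.

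The number of all features called, 156 as reported, was 527 with DESeq2, 290 without the low-count filter, 30 with limma on log2(FPKM + 0.1) and 30 on log2(FPKM + 1), 6 with an absolute log2 fold change over 1 and 73 with an FDR under 0.01. An absolute log2 fold change over 1 with an FDR under 0.05 is also the paper's criterion, by which it reports many more genes. The paper does not name its test, and the cause of the difference was not tested. The number of all features called ranged from 74 to 161 with 1 library left out. It was 82, 101 and 89 without DOX– replicates 1, 2 and 3 and 74 without DOX+ replicate 1. With the replicate block it was 292, but same-numbered libraries did not deviate together (correlations of −0.0352 to 0.0363, against −0.0329 to 0.0583 for other pairs), so the numbers were not taken as pairs. FOXN2 took the calls among other forkhead genes from 0 to 1 with the 1 CPM filter, DESeq2, library size scaling, no filter or the replicate block. PRRX1 did so among the other mesodermal regulators with DESeq2 or no filter. WNT5A lost its call on both FPKM scales, leaving 0 of its list called, although its log2 fold change was 0.187 and 0.185 there. With 1 library left out the list had 0 to 1. SCUBE3 kept its call in all 15 settings.

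Depth limits MEOX2, which has no counts, TBX4, whose edgeR adjusted p without the low-count filter was 0.914 at a standard error of 1.53 on the log2 scale, and GLI1, whose interval is the widest of the 8.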
